A study of Mus musculus with 4 samples.

Results

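The myogenic regulatory factors Myod1, Myf5, Myog and Myf6 and their partners Mef2a, Mef2c and Mef2d were read in dissected muscle of mouse embryos at E13.5. They were taken as every probe set that the platform annotation names with one of these 7 symbols, of 18193 genes named by 1 symbol on the array. This gave 19 of 45037 probe sets, 5 for the regulatory factors and 14 for the Mef2 genes. The 4 tissue samples, 1 Affymetrix array each, were limb muscle of Myod null embryos (MyoD-/-), limb muscle of wild-type (WT) embryos, back muscle of Myf5 null embryos (Myf5-/-) and back muscle of WT embryos. All 4 are labelled BALB/c and E13.5, and no treatment is given. The sources used here do not state how the null alleles were built or how many embryos stand behind an array. With 1 array a group there is no replicate error and no test, and every difference below is one between single arrays.

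The 4 myogenic regulatory factors are basic helix-loop-helix (bHLH) proteins that bind the E-box, a short DNA motif, as dimers with ubiquitous E proteins such as Tcf3. Myf5 and MyoD commit progenitors to the muscle lineage, myogenin (Myog) drives their differentiation into fibres, and Myf6 (MRF4) acts in both steps. Mef2 proteins are MADS-box factors that bind an A/T-rich site and act with the bHLH factors on muscle promoters. They do not start the muscle programme alone, and Mef2c is also known in endothelium, heart, neurons and cartilage.

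RefSeq promoter windows, 250 bases before to 50 after a transcript start, were at hand for 5 of the 7 genes, with 3 starts for Mef2c. Shown are those of Myog, lower in both mutant arrays, of Myf5, higher in MyoD-null limb, and of Mef2a, whose window holds the MEF2 consensus. Capitals mark the E-box (CANNTG), the MEF2 consensus and the MEF2 core with its outer bases left free, searched on both strands on build GRCm38.p6. The Myog window is chr1:134289754-134290053 on the plus strand, the Myf5 window chr10:107486085-107486384 on the minus strand, and the Mef2a window chr7:67372809-67373108 on the minus strand.
Myog: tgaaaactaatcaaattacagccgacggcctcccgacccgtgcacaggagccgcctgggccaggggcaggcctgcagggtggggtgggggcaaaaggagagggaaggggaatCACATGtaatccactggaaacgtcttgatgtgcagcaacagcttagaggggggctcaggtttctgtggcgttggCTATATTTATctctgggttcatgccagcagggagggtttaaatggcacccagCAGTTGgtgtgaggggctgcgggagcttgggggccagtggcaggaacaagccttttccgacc
Myf5: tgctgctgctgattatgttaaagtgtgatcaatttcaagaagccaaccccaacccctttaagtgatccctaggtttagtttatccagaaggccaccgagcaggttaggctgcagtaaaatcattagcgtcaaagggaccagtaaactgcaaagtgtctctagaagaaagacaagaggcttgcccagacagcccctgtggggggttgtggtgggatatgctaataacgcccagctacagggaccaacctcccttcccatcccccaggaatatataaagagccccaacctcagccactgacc
Mef2a: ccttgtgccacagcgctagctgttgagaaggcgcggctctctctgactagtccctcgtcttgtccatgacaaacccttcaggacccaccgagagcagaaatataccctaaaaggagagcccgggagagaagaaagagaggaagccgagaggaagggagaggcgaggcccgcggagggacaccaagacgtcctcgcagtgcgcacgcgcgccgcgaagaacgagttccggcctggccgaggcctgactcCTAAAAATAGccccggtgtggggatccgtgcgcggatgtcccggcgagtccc

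The Myog window held 2 E-boxes, CACATG with its first base at -138 and CAGTTG at -12 from the start. Between them lay CTATATTTAT, a match to the MEF2 core, at -64. In the Mef2a window CTAAAAATAG, a match to the MEF2 consensus and thus also to the core, lay at -2, and no E-box was found. Windows of Myf5 and Mef2d and start 2 of Mef2c held none of these letters. Start 1 of Mef2c held 2 E-boxes and 1 MEF2 core, and start 3 held 1 E-box. Of 32851 windows of this length, 72.3% held at least 1 E-box, 39.6% at least 2, 9.23% a MEF2 core and 3.19% the MEF2 consensus. E-boxes are thus common in such windows and the MEF2 consensus is rare. A match is a description of letters and does not show binding in these tissues.

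**Figure D1:**
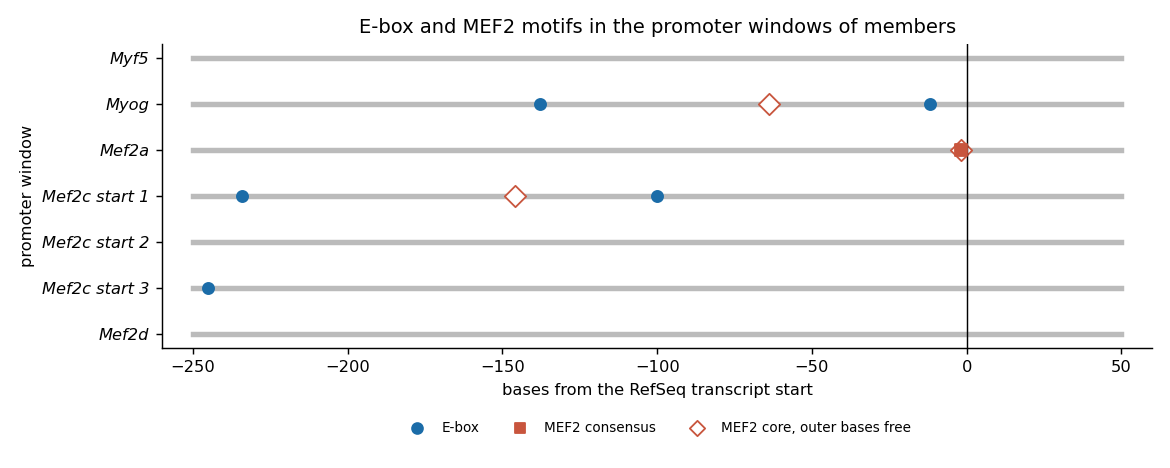
E-box and MEF2 motifs in the promoter windows of members, by the distance of the motif's first base from the RefSeq transcript start (x axis, bases), with 1 row per window. Circles are E-boxes, filled squares the MEF2 consensus and open diamonds the MEF2 core; the core of Myog lies between its 2 E-boxes.

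Signals are MAS5 intensities scaled to a common mean of 500, and values under 100 were treated as having no level and set to 100 before log2 ratios were taken. A probe set was called when 2 arrays differed at least 2-fold and the brighter reached 200. Signals of different probe sets cannot be compared as levels. Between probe sets of one gene, log2 ratios had a median SD of 0.35 in the limb pair, 0.32 in the back pair and 0.35 for WT limb over WT back, which covers probe noise and not embryos. Muscle itself was read from 8 markers (Myh3, Acta1, Actc1, Ttn, Des, Myl1, Mylpf and Tnnt1), all above 100 in every array. Their summed signal was 47366 in MyoD-null limb, 72234 in WT limb, 93582 in the back array labelled Myf5-null and 138206 in WT back. In such pieces fewer muscle cells and less RNA per cell cannot be told apart. The ratio of 3 prime over 5 prime signal for Gapdh was 8.06 in MyoD-null limb against 12.2 in WT limb, and 9.46 in the back array labelled Myf5-null against 6.45 in WT back. For Actb it was 3.86 and 6.88 in the limb pair and 4.28 and 3.20 in the back pair, each mutant array first. The 3 prime signal was thus the stronger in every array for both genes. Both ratios were lower in the mutant array of the limb pair and higher in that of the back pair, and the WT arrays differed most. The part of this bias in the ratios below was not tested.

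Myod1, the targeted gene of the limb pair, had a signal of 688 in MyoD-null limb, 1438 in WT limb, 2333 in the back array labelled Myf5-null and 2870.3 in WT back on its brighter probe set (1418420_at). It was 2.09-fold lower in MyoD-null limb than in WT limb (log2 ratio -1.06) but remained above 100 there. The sources used here do not say which part the null allele lacks or where the probes lie, so the signal does not check the label. A dim second probe set (1447675_x_at, whose name marks probes that may match other sequences) read 92.1, 209, 204 and 147 in the same order. In MyoD-null limb it was lower by at least 2.09-fold, a call lost with a floor of 200 (-0.07). That call was also lost after quantile normalization (-0.90), after loess normalization (-0.91) and with a pseudocount of 100 (-0.69). In the back pair it was higher in the mutant array (0.47, or 0.03 with a floor of 200), where the bright probe set had -0.30. The probe sets thus had the same direction in the limb pair and opposite directions in the back pair.

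Myf5, the earliest of the 4 factors in the embryo, had 1019 in MyoD-null limb, 506 in WT limb, 583 in the back array labelled Myf5-null and 508 in WT back on its 1 probe set (1420757_at). The other arrays lay close together and MyoD-null limb alone stood apart, 2.01-fold above WT limb (1.01). That ratio only just reaches the 2-fold call. Although that gene is the one named as null, Myf5 had a ratio of 0.20 in the back pair, so the directions of the back pair rest on the label. In WT limb and WT back its signals were nearly equal (log2 ratio -0.0047).

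Myog (1419391_at) had 1737 in MyoD-null limb, 2401 in WT limb, 3404 in the back array labelled Myf5-null and 4934 in WT back. Both back arrays lay above both limb arrays, and each mutant array lay below its own WT. The ratios were -0.47 in the limb pair and -0.54 in the back pair, neither of them called, and -1.04 (2.06-fold lower) in WT limb against WT back. Myod1 on its bright probe set gave the same order of the 4 arrays. Myf6 (1419150_at), which lies next to Myf5 on chromosome 10 with no other protein-coding gene between them, read 31.5, 31.5, 36.2 and 24.2 in the order given for Myog. It had no measurable level in any of the 4 arrays.

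**Figure D2:**
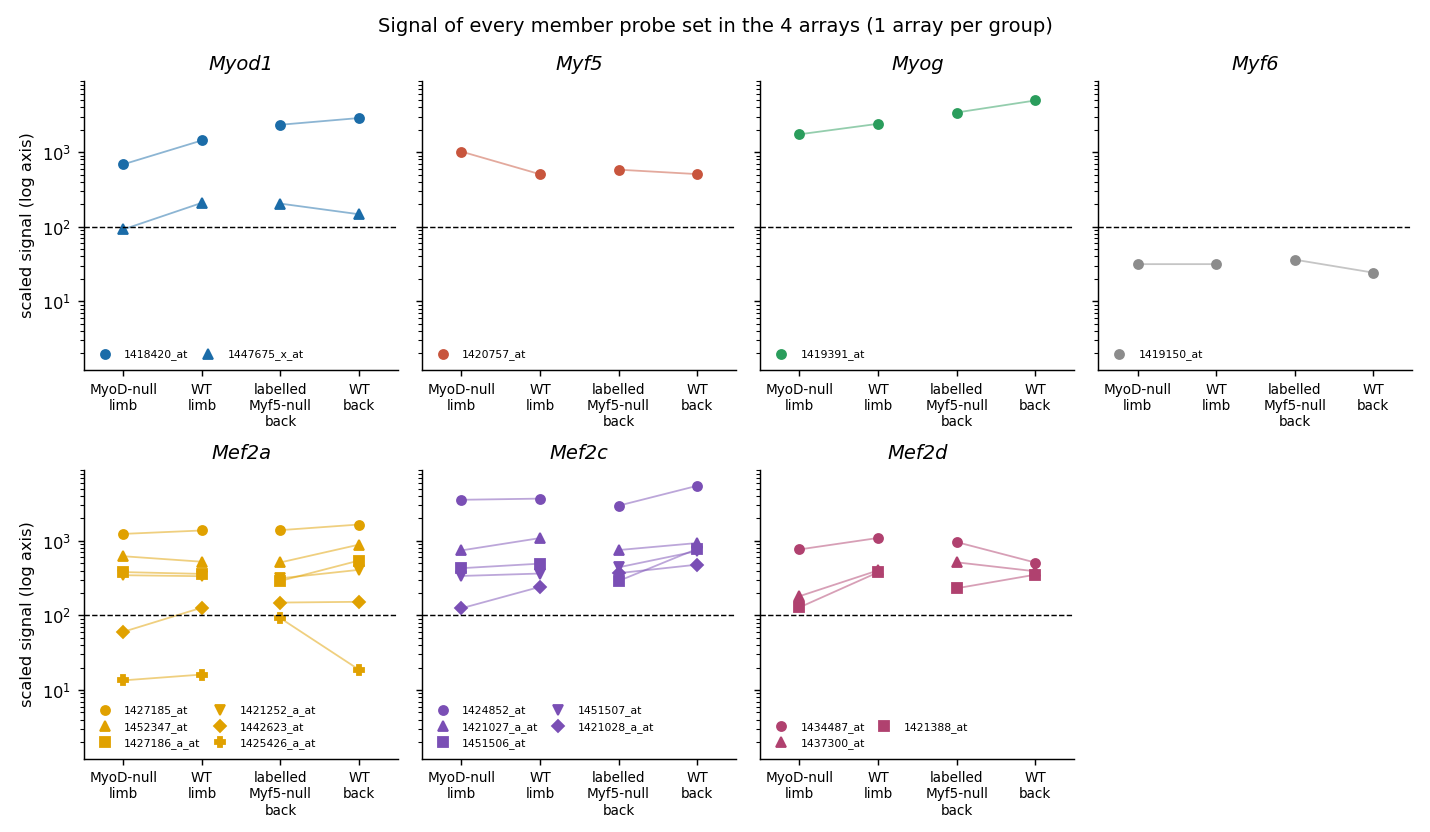
Scaled signal (log axis) of each of the 19 probe sets of the 7 genes in the 4 arrays, 1 array per group; lines join a mutant array to its WT and the dashed line is the floor of 100. Myf6 lies below the floor in every array, and Myf5 is highest in MyoD-null limb, at 1019.

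Mef2a, the most widely expressed of the Mef2 genes, is read by 6 probe sets, of which 3 were designed from one sequence record and so share a target. The brightest (1427185_at) had 1241 in MyoD-null limb, 1379 in WT limb, 1393 in the back array labelled Myf5-null and 1658 in WT back. In the same order 1452347_at had 622, 525, 514 and 890.4. The dimmer 1427186_a_at had 381, 361, 290.4 and 545, and 1421252_a_at had 346, 336, 315 and 409. Of these 4 probe sets, which all reached 200, 3 lay above 0 and 1 below in the limb pair, between -0.15 and 0.24, which is inside the spread between probe sets. All 4 were lower in the back array labelled Myf5-null, between -0.91 and -0.25, and none was called. Each of the 4 was highest in WT back, and in WT limb against WT back they lay between -0.76 and -0.27. The fifth (1442623_at) read 60.3, 127, 149 and 152, and the sixth (1425426_a_at) stayed under 100 in every array, reaching at most 91.7.

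Mef2c, the Mef2 gene that comes first in developing muscle and heart, is read by 5 probe sets, 3 of them from one record. Its brightest (1424852_at) had 3558 in MyoD-null limb, 3688 in WT limb, 2964 in the back array labelled Myf5-null and 5475 in WT back, so that WT back alone stood apart. The others read, in that order, 745, 1090.0, 753 and 935 (1421027_a_at), 430.2, 495, 289.6 and 780.2 (1451506_at), 338, 365, 442 and 729 (1451507_at), and 125, 242, 369 and 479.8 (1421028_a_at). All 5 probe sets were below 0 in both mutant comparisons. In the limb pair they lay between -0.95 and -0.05 with a median of -0.20, and none was called. In the back pair they lay between -1.43 and -0.31 with a median of -0.72, and 1451506_at was called, with 289.6 in the back array labelled Myf5-null against 780.2 in WT back (2.69-fold lower). Against WT back, WT limb was lower on 4 of the 5, lowest on 1451507_at (365 against 729, -1.00016, a call lost without rescaling, after quantile or loess normalization and with a pseudocount), and higher on 1421027_a_at (1090.0 against 935, 0.22).

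Mef2d, also a gene of muscle, brain and other tissues, was lower in MyoD-null limb than in WT limb on all 3 of its probe sets, which come from 3 different records. The bright 1434487_at had 768 in MyoD-null limb, 1094 in WT limb, 964 in the back array labelled Myf5-null and 513 in WT back. In the same order 1437300_at had 181, 402, 516 and 391, and 1421388_at had 128, 379, 231 and 352. MyoD-null limb was lowest on 2 of the 3. Its log2 ratios to WT limb were -0.51, -1.15 (2.22-fold lower) and -1.56 (2.95-fold lower), with an SD of 0.53 between them. The call on 1437300_at was lost after quantile normalization (-0.987) and with a pseudocount of 100 (-0.84). That on 1421388_at was lost with a floor of 200 (-0.92). In the back array labelled Myf5-null the same probe sets gave 0.91, 0.40 and -0.61 against WT back and so had no common direction. WT limb was above WT back on each, at 1.09, 0.04 and 0.11, but only the first was called. The back ratios of Mef2d spread more (SD 0.77) than those of 91.4% of the 4914 genes with at least 2 probe sets measured in both arrays.

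**Figure D3:**
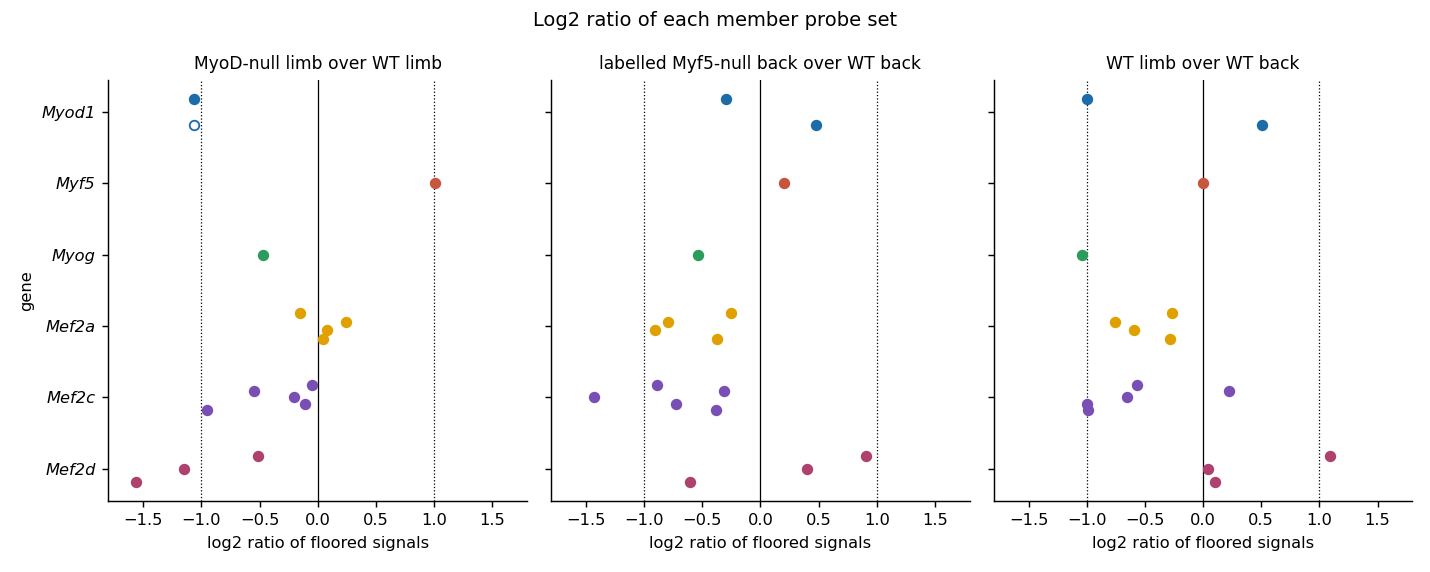
Log2 ratio (x axis) of each probe set that reached 200 in at least 1 array, by gene, for the 3 comparisons; open points are lower bounds on the difference and dotted lines mark 2-fold. In the limb pair Mef2d lies below 0 on all 3 probe sets, from -1.56 to -0.51, and Myf5 is the only gene past 2-fold to the right.

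Counted over the 16 probe sets that reached 200 in the brighter array of the limb pair, 4 were called lower in MyoD-null limb (2 of Myod1 and 2 of Mef2d) and 1 was called higher (Myf5). Over all probe sets the share called lower was 9% and the share called higher 4.33%, against 25.0% and 6.25% of the member probe sets. Probe sets of one gene are repeated readings, and 12 of the 16 are of the Mef2 genes. The 4 called lower come from Mef2d and from Myod1, the gene named as null in that pair, so these shares do not count separate genes. In the back pair 1 of 16 was called lower (Mef2c) and 0 higher in the back array labelled Myf5-null, with backgrounds of 4.08% and 9.49%. In that pair 12 of the 16 member probe sets lay below 0, with a median of -0.38, while the median over all probe sets was 0.05. The limb pair had 12 of 16 below 0, with a median of -0.34 against -0.03 over all probe sets. In WT limb against WT back 2 of 16 were called lower (Myog and 1 probe set of Mef2c) and 1 higher (Mef2d), with backgrounds of 6.32% and 8.59%. There the median of the member probe sets was -0.43 against 0.02. WT back was the highest array for 10 of the 16 probe sets. It enters both the back pair and the WT comparison, so those lower ratios share 1 array, as the limb pair and the WT comparison share WT limb. Calls also sat close to the threshold: Myf5 in the limb pair was 2.01-fold, and against WT back the WT limb ratio of Myod1 was -0.997, just outside, and that of 1451507_at -1.00016, just inside.

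The summed muscle markers moved with several of the members. The sum weighs its brightest markers most, which were Actc1, Myh3 and Acta1. In the limb pair 6 of the 8 markers lay below 0, with a median of -0.49, and Des (0.35) and Myl1 (0.07) lay above. All 8 lay below 0 in the back pair and in WT limb over WT back. The log2 ratio of the sum was -0.61 for MyoD-null limb over WT limb. It was -0.56 for the back array labelled Myf5-null over WT back and -0.94 for WT limb over WT back. Beside these ratios of the sum, Myog had -0.47, -0.54 and -1.04, and so lay within 0.15 of it in each comparison, by 0.14, 0.03 and -0.10. Myod1 was below the muscle sum in MyoD-null limb by 0.46 and above it in the back array labelled Myf5-null by 0.26, while WT limb over WT back differed from it by -0.06. Myf5 lay above the sum in all 3, by 1.62, 0.76 and 0.93. The brightest probe set of Mef2c was 0.56 above the sum in the limb pair and 0.32 below it in the back pair, and that of Mef2d was 0.10 and 1.47 above it. This setting beside the muscle sum was chosen after the values were seen, and it shows unequal change, not that any gene was constant. What part the amount of muscle has in these ratios was not tested.

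Markers of other tissues, some of which can hold Mef2 transcripts, were read in the same arrays. Cartilage, endothelium, neurons and heart are given here. Smooth muscle, macrophages, connective tissue and red blood cells were read too but are not given. The 8 cartilage markers, all above 100 in every array, summed to 21008 in MyoD-null limb, 17500 (17499.7) in WT limb, 4559.5 in the back array labelled Myf5-null and 20089 in WT back. Their log2 ratio was -2.14 in the back pair, where 7 of the 8 were called lower and Mef2c and Mef2a were lower too, and their part in this was not tested. The 7 endothelial markers summed to 3806 in MyoD-null limb against 4087 in WT limb, and to 4333 in the back array labelled Myf5-null against 4509 in WT back. Tie1 was under 100 in both limb arrays and Pecam1 under 100 in the back array labelled Myf5-null. Of the 6 endothelial markers bright enough to be counted in the back pair, 4 lay above 0 and 2 below, with a median of 0.29. The lower back sum is thus not the direction of most of them, and Cdh5 had 831 against 1290 there. The 8 neuronal markers summed to 1133, 1303, 2239 and 2723 in the array order given for cartilage. Snap25 was under 100 in all 4 arrays, Elavl3 in both limb arrays and Elavl4 in MyoD-null limb. Of the 4 neuronal markers bright enough to be counted in the limb pair, 2 lay above 0 and 2 below, with a median of -0.02. Isl1 had 128 in MyoD-null limb against 289 in WT limb, and Elavl4 26.9 against 147. The 6 heart markers summed to 2060.4, 2148, 849 and 1526 in the array order given for cartilage. Tbx5 made up most of both limb sums, at 1375 in MyoD-null limb and 1152 in WT limb. It had 24.7 in the back array labelled Myf5-null and 273 in WT back, so the higher limb sums rest on this gene. Ryr2 was under 100 in all but WT limb, Gata4 and Myh6 in MyoD-null limb, and Nppa in WT limb.

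**Figure D4:**
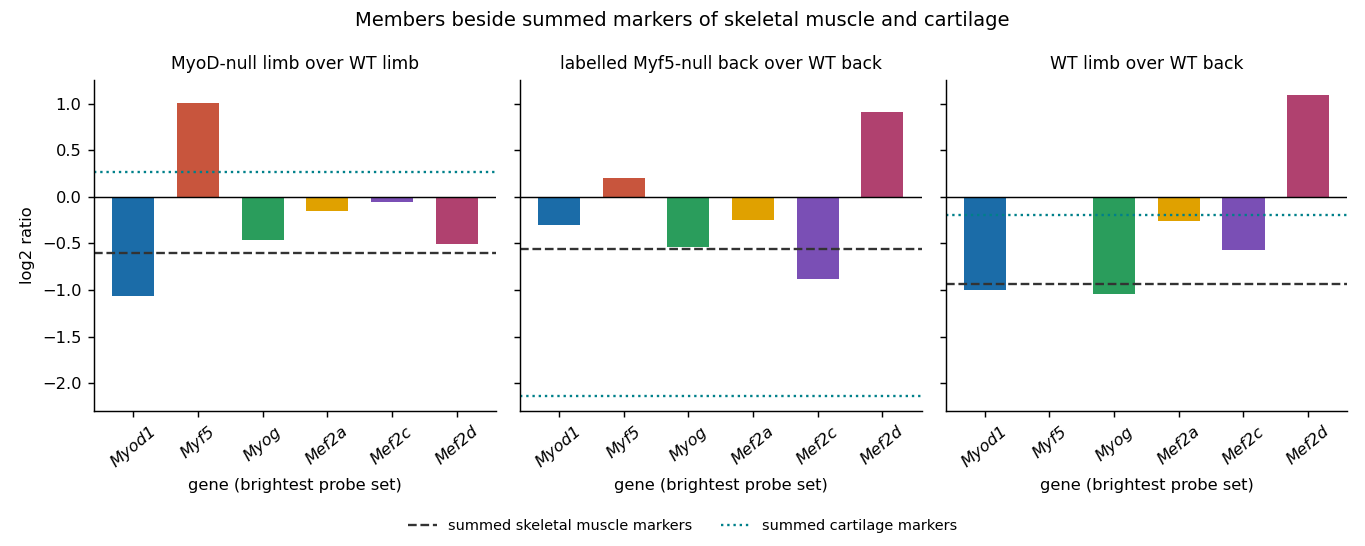
Log2 ratio (y axis, bars from 0) of the brightest probe set of each gene with a level in all 4 arrays, for the 3 comparisons, beside the ratio of the summed skeletal muscle markers (dashed) and cartilage markers (dotted). Myog lies near the dashed line in each panel, and the cartilage line is at -2.14 in the back pair.

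Genes that act with, on or under these factors were read on the brightest probe set of each gene, from 7 lists. Over all genes, the shares called lower and higher were 6.64% and 2.94% in the limb pair, 3.13% and 6.95% in the back pair, and 4.47% and 6.76% for WT limb over WT back. E proteins, the dimer partners, had 3 of 3 above 0 and 0 called in MyoD-null limb, with Tcf12 at 11648 against 8115 (0.52) and Tcf4 at 8723 against 6219.8 (0.49). Other probe sets of Tcf4 and Tcf12 went both ways. The list's median of 0.49 was 0.03 without probe sets whose names end in _a_at, _s_at or _x_at. Id proteins, which bind E proteins and keep them from the muscle factors, had 0 of 4 called in any comparison on the brightest probe set. A second probe set of Id2 was called higher in both mutant arrays, at 566 in MyoD-null limb against 33.7 in WT limb and 307 in the back array labelled Myf5-null against 43.5 in WT back, where the brightest gave -0.14 and 0.03. On the brightest, all 4 were higher in WT limb than in WT back, from 0.48 for Id3 to 0.76 for Id1 (1348 against 797). Id4 had 0.49 there, with 2.26 and 0.57 on its other probe sets.

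Other antagonists of the muscle bHLH factors went both ways in each comparison. In the limb pair 1 of 11 was called higher and 1 lower: Snai1, a zinc finger repressor that occupies E-boxes, had 368 in MyoD-null limb against 148 in WT limb (1.32), and the bHLH factor Tcf21 had 105 against 254 (-1.27). Msc (MyoR), a bHLH repressor of muscle genes, had 1577 against 959 (0.72), and Twist1, which binds MyoD and E proteins, 3322 against 4863 (-0.55). In the back pair Tcf21 was called higher, at 682 in the back array labelled Myf5-null against 266 in WT back, so it had opposite directions in the 2 pairs. Mdfi, which holds myogenic factors in the cytoplasm, was called lower there, at 122 against 354 (-1.54). Its other probe set was called higher, at 292 against 71.2 (at least 1.55). Against WT back, WT limb had Snai2 called higher (18867 against 8743, 1.11, with 0.46 on another probe set) and Mdfi lower (122 against 354). The other probe set of Mdfi had 101 against 71.2 in these arrays, so its 0.01 is set by the floor. Other probe sets of Heyl and Zeb1 were called lower in MyoD-null limb. That of Heyl gave -1.45, against -0.47 on the brightest. That of Zeb1 had 7.39 against 217 in WT limb, so its -1.12 is a bound set by the floor. Zeb1 gave 0.48 on its brightest probe set and 0.26 on another.

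Regulators of Mef2 activity, among them the class IIa histone deacetylases that bind and silence Mef2, had 0 of 12 called in the limb pair on the brightest probe sets, with medians of -0.05, -0.04 and -0.11 in the 3 comparisons. Of 11 dimmer probe sets of these genes, 2 of Mapk14, a kinase that activates Mef2, were called higher in MyoD-null limb (1.36 and 1.11, against 0.25 on the brightest) and 1 of Hdac7 lower (-1.33, against -0.08). A dimmer probe set of Ppp3cb was called higher in the back pair (1.31, against -0.29). Hdac5 had 2304 in MyoD-null limb, 2487 in WT limb, 1887 in the back array labelled Myf5-null and 2053 in WT back. The exception in the back pair was Cabin1, a corepressor of Mef2, at 463 against 170.3 (1.44), with -0.54 and 0.12 on its other probe sets. Coactivators had 1 of 14 called in the limb pair: Tead4, a TEA-domain factor of muscle promoters, was lower there by at least 2.59-fold (70.2 against 259). Its other probe set had 108 against 38.9, so its 0.11 is set by the floor. The acetyltransferase Ep300 had 1867 against 1592 (0.23) there. In WT limb Meis1, a homeobox partner of MyoD, was 1066 against 2656 in WT back (-1.32), with ratios of -0.96 and 1.01 on other probe sets.

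Upstream factors of the muscle lineage, 8 of the 10 listed being named on the array here, had 4 of 6 above 0 and 0 called in MyoD-null limb on the brightest probe set. Pax7 had 625 against 445 there (0.49, with -0.20 on another probe set). A second probe set of Lbx1 was called higher there, at 213 against 94.7 (1.09), where the brightest gave -0.33. In the back pair Pax7 was called lower, at 261 in the back array labelled Myf5-null against 681 in WT back (-1.38). A dimmer probe set of Six4 was called lower there too, at 95.8 against 326 (-1.70, a bound set by the floor), where the brightest gave 0.39. The list's median there was 0.13, and -0.98 without probe sets whose names end in _a_at, _s_at or _x_at. Lbx1, which marks progenitors that migrate into the limb, was called higher in WT limb, at 447 against 123 in WT back (1.87). Its second probe set was under 100 in both WT arrays and so gave no ratio there.

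Muscle genes taken as targets of these factors were lower in each comparison as a list. In MyoD-null limb 26 of 32 lay below 0, 5 were called lower and 0 higher, with a median of -0.55 against -0.01 over all genes. The 5 were Klhl41, which stabilises thin-filament proteins (851 in MyoD-null limb against 2359 in WT limb, -1.47), Ckm, muscle creatine kinase (169 against 458, -1.43, with 0.05 on another probe set), Tnnc2, fast troponin C (1756 against 4103, -1.22), Cdh15, M-cadherin (442 against 908, -1.04), and Tnnt1, slow troponin T (4567 against 9319, -1.03). In the back array labelled Myf5-null 34 of 36 lay below 0, 7 were called lower and 0 higher, with a median of -0.60 against 0.02. They were Mb, Musk, Myh8, Smyd1, Tnnt3, Chrng and Chrna1. Chrna1 was just inside the threshold (-1.00031). Mb and Musk were under 100 in the back array labelled Myf5-null, so their ratios are bounds. Perinatal myosin Myh8 had 1145 in the back array labelled Myf5-null against 3389 in WT back (-1.57), and the acetylcholine receptor subunit Chrng 267 against 544 (-1.03). Smyd1 had -1.29, with 0.26, 0.37 and -0.25 on other probe sets. WT limb against WT back had 35 of 36 below 0, 13 called lower and 0 higher, with a median of -0.77 against 0.02. They were Lmod3, Mb, Des, Rapsn, Pygm, Chrnb1, Acta1, Smyd1, Myom1, Myh8, Tnni1, Mymk and Rb1, of which Mymk (-1.03) and Rb1 (-1.01) lay near 2-fold. The last count rests on the same WT back array as the second, and 7 of the 8 muscle markers above are among these targets, so the lists are not independent. Of genes known as direct targets of myogenin and MyoD, Mymk, the membrane activator of myoblast fusion, had 603 in MyoD-null limb against 956 in WT limb (-0.67) and 1081 in the back array labelled Myf5-null against 1953 in WT back (-0.85). Its partner Mymx had 717 against 1249 (-0.80) and 1059.8 against 1411 (-0.41) in the same pairs.

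Cell-cycle exit genes of the target list did not all follow. The inhibitor Cdkn1a had 1874 in MyoD-null limb against 2811 in WT limb (-0.59, with 1.04 on another probe set) and 2669 in the back array labelled Myf5-null against 4575 in WT back (-0.78). Cdkn1c had 26959 against 32337 (-0.26) and 37617 against 33425 (0.17), and Ccnd3 3603 against 3538 (0.03) and 4658 against 5774 (-0.31, with 1.14 on another probe set). Among the targets called between the WT arrays were Lmod3, which nucleates thin filaments (139.7 in WT limb against 528 in WT back, -1.92), Mb, myoglobin (under 100 against 372, at least 3.72-fold lower; its other probe set had 124 in WT back and was under 100 in WT limb), Des, the intermediate filament of muscle (300.04 against 970.1, -1.69), and Rapsn, which clusters acetylcholine receptors (135 against 428, -1.67). The other probe set of Des had 55.1 in WT limb and 105 in WT back, so its -0.06 is set by the floor.

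**Figure D5:**
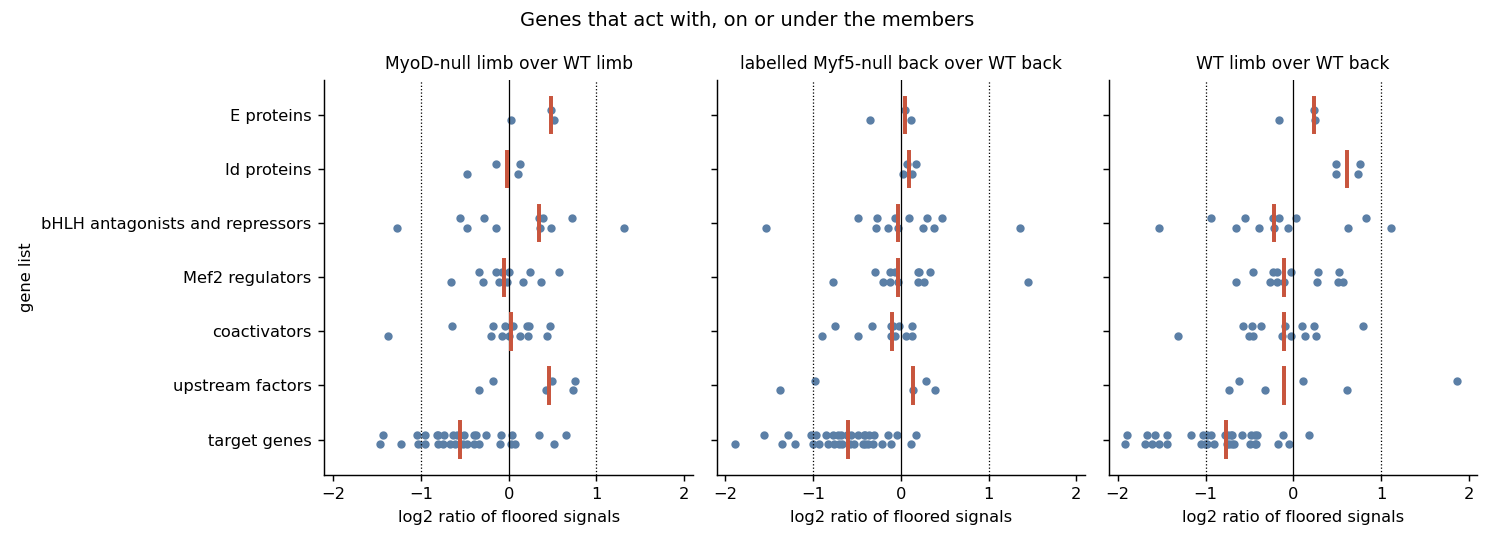
Log2 ratio (x axis) of the genes of 7 lists that reached 200 in the brighter array, 1 point per gene on its brightest probe set; the thick mark is the list's median and dotted lines mark 2-fold. Target genes have medians of -0.55, -0.60 and -0.77 in the 3 comparisons.

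Genes whose pattern over the 4 arrays lay nearest to each member were found among the 9068 genes at 200 or more in every array, by the root mean square (RMS) difference of log2 signals centred on their own mean. The 4 arrays make 4 points, so this likeness is a description of these arrays. It rests on the brightest probe set of each member. For Mef2d the others had another order of arrays, with MyoD-null limb lowest. Some other probe sets of Myod1, Mef2a and Mef2c had another order as well. Nearest to Myog were Tubb6, a beta tubulin (1578 in MyoD-null limb, 2132 in WT limb, 3322 in the back array labelled Myf5-null, 4842 in WT back, RMS 0.063), and Tnni1, slow troponin I (RMS 0.064). Thbs4, Meox1 and Pcsk5 followed at 0.082, 0.083 and 0.096. The small heat shock gene Hspb1 came nearest to Myod1, with 753, 1550.0, 2587 and 2901 in that order (RMS 0.051), before Mtfr1, Col12a1, Fitm1 and Tgm2, of RMS 0.11 to 0.18. Myf5 had as its nearest Alkbh8 (550.9, 289.8, 317 and 288, RMS 0.035) and Gnb4 (RMS 0.038), then Emilin3, Tuft1 and Pomk. For Mef2c the nearest were Sec22c, Slc23a2, Kdm6a, Dusp4 and Snx7 (RMS 0.043 to 0.063), and for Mef2d Alkbh4, Csnk1g1, Relt, Tsr3 and Nkx2-5 (0.044 to 0.078). Mef2a, whose brightest probe set had the flattest profile of those used (1.34-fold from highest to lowest), had Rpl4, Bloc1s5, Nans, Eprs and Mmachc (0.014 to 0.023). Its probe sets 1452347_at and 1427186_a_at ranged more, by 1.73-fold and 1.88-fold.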

How the data were processed

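Total RNA was extracted with Trizol and 6 µg made into biotinylated cRNA, per the labels' protocols. The authors deposited 1 intensity per probe set and array on a linear scale. The submitters' processing notes name MAS5, of a version the sources used here do not give. The deposited 2% trimmed means were 1477 to 1479, so arrays had been scaled already. The table holds 45101 probe sets, 64 of them controls.

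Groups came from the sample titles, 1 array each, so no test over samples was made. Arrays were rescaled to a 2% trimmed mean of 500, floored at 100, and log2 ratios taken (Python 3.11.15, numpy 2.4.6, pandas 2.3.3). A call needed 2-fold and 200 in the brighter array. Medians and counts use features at 200 in the brighter array. Names came from the platform annotation: 34945 probe sets have 1 symbol, and 932 with several were not used. The number of arrays limits the precision. Promoters are from RefSeq, GRCm38.p6.

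The members and lists were chosen with earlier results of these data known. The rule named all member probe sets, list genes that were called, up to 4 per list with the largest ratios, and the 5 nearest genes per member. Of the largest ratios the text gives part. Other probe sets of list genes, and some uncalled genes, were added after their values were seen. The 8 alternatives to scaling, floor, fold and probe set choice, the gene median for lists, and the muscle-marker setting added later are in the closing section. The steps were tested on simulated data.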

Additional observations from a re-analysis of the deposited data

Results flagged for a closer look

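On 4 probe sets the limb pair and the back pair had opposite signs and differed by at least 1 on the log2 scale. The limb ratio minus the back ratio was -1.54 for the dim probe set of Myod1 (1447675_x_at), -1.42 for 1434487_at and -1.55 for 1437300_at of Mef2d, and 1.04 for 1452347_at of Mef2a. With 1 array a group these differences were not tested. The Myod1 value rests on a signal under 100 in MyoD-null limb, so its size depends on the floor, and with a floor of 200 it was -0.096. With that floor the others were 1.04 for Mef2a, and -1.42 and -1.41 for Mef2d. The third probe set of Mef2d was lower in both pairs (a difference of -0.96), and the bright probe set of Myod1 was lower in both as well.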

How the results depend on the processing

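Up to 7 alternative settings of scaling, floor and probe set choice were tried on the 16 member probe sets that reached 200. The 5 of them whose names end in _a_at or _x_at had 6, as 1 setting left out such names. All 16 kept their sign in the limb pair and in the back pair. In WT limb over WT back 15 of 16 did, and there Myf5 lay near 0 (-0.0047). Counts near 2-fold did move. In the limb pair 5 member probe sets were called, against 2 under quantile normalization, 3 after loess, 3 with a floor of 200 and 1 with a pseudocount of 100. Myf5 was called neither after quantile normalization, nor after loess, nor with the pseudocount, at 0.88 or more throughout. In the back pair 1 was called, against 2 under quantile normalization and 7 at 1.5-fold. In WT limb over WT back 3 were called, against 2 without rescaling, 1 with the pseudocount and 8 at 1.5-fold. After quantile and loess normalization 3 were called, but the Mef2c probe set among them was 1421028_a_at (-1.02 and -1.01) and not 1451507_at (-0.98 and -0.97). A floor of 200 or a pseudocount shrinks low signals by construction; otherwise the cause was not tested. Single ratios moved by more than the spread between probe sets in 10 cases, all of them dim probe sets under another floor or the pseudocount. Setting ratios relative to the muscle sum shifts every one by the same amount in a comparison. No paired analysis was possible because each group has 1 array. For low probe sets such as 1421388_at of Mef2d, at 128 in MyoD-null limb, the floor limits the ratio, which was -0.92 with a floor of 200. Detection calls and scanner files were not used here.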
